A study of Mus musculus with 8 samples.

Results

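The genes of DNA replication and S phase were followed in kidney RNA of 8-week-old C57BL/6J mice taken at day 3 after ischaemia-reperfusion injury (IRI), in which renal blood flow is stopped and restored and the tubules are damaged. The 4 HxIRI libraries came from kidneys of mice exposed to hypoxia before the injury, which is called hypoxic preconditioning. The 4 IRI libraries came from mice held in normoxia before the same injury. All 8 libraries came from injured kidneys and no uninjured kidney was analysed here. No label ties a library to its own mouse, so a p-value here reflects the spread among 8 libraries alone, part of which may be technical.

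The set held 45 genes chosen by symbol for origin licensing, the replication fork, nucleotide supply and E2F control. All 45 had a row among the 34450 genes of the deposited table. Of these, 41 reached the mean of 0.5 FPKM, a count of fragments corrected for transcript length and for the depth of each library, required for testing, as did 14444 genes in all. The other 4, Orc1, Mcm10, Ung and Exo1, are described by their values. In 14 of the 41, Pole and Chaf1b among them, the HxIRI mean was itself under 0.5 FPKM, so that these entered the test through the IRI libraries. Counts over the tested genes are therefore descriptions.

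A cell that enters S phase has first loaded the MCM helicase onto its origins with the help of ORC, CDC6 and CDT1. The helicase is then activated by CDC45 and the GINS complex, and polymerases, the sliding clamp PCNA and a supply of deoxynucleotides allow the fork to move. Most of these genes are transcribed under E2F factors at the border of G1 and S phase, with cyclin E acting on the same step. After ischaemic injury, surviving tubule cells re-enter the cell cycle to replace lost ones, and resident and recruited macrophages and fibroblasts also divide. In whole kidney RNA, fewer cells of a type and less RNA per cell cannot be told apart.

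The libraries differed in composition before any comparison of groups. Depth was estimated at 8470000 to 14500000 fragments per library. Nuclear protein-coding genes took 20.3% to 56.7% of the fragments in the HxIRI libraries and 21.5% to 60.3% in the IRI libraries. Ribosomal RNA took 21.5% to 67.4% in the HxIRI libraries and 13.5% to 72.5% in the IRI libraries. In IRI library 5, with 13.5% ribosomal and 56.8% protein-coding fragments, most of the rest was neither. HxIRI libraries 1 and 2 correlated at 0.924 (Spearman, over tested genes) and 3 and 4 at 0.921, against 0.833 to 0.853 across these pairs. IRI library 5 stood apart, with a mean correlation of 0.633 with the others, where the other 7 libraries had 0.767 to 0.832. The tissue label was met by proximal tubule markers (Slc34a1, Lrp2, Slc5a2, Slc5a12, Slc22a6, Aqp1 and Kap), none of which was listed at 0 in any library.

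Replication genes had lower mean levels after hypoxic preconditioning in every role group, and in the plot of genes by library the difference runs across the whole set. The mean of the HxIRI libraries was below that of the IRI libraries for all 45 genes, by a factor of 2.0 (Orc6) to 12.9 (Pole), with a median factor of 4.15. The summed level of the 45 genes was 82.8, 67.7, 20.9 and 19.1 FPKM in HxIRI libraries 1 to 4 and 129.2, 115.9, 390.1 and 128.1 FPKM in IRI libraries 5 to 8. Every HxIRI library was below every IRI library in this sum. IRI library 7 was far above the other 3 of its group, and HxIRI libraries 3 and 4 were far below 1 and 2.

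**Figure D1:**
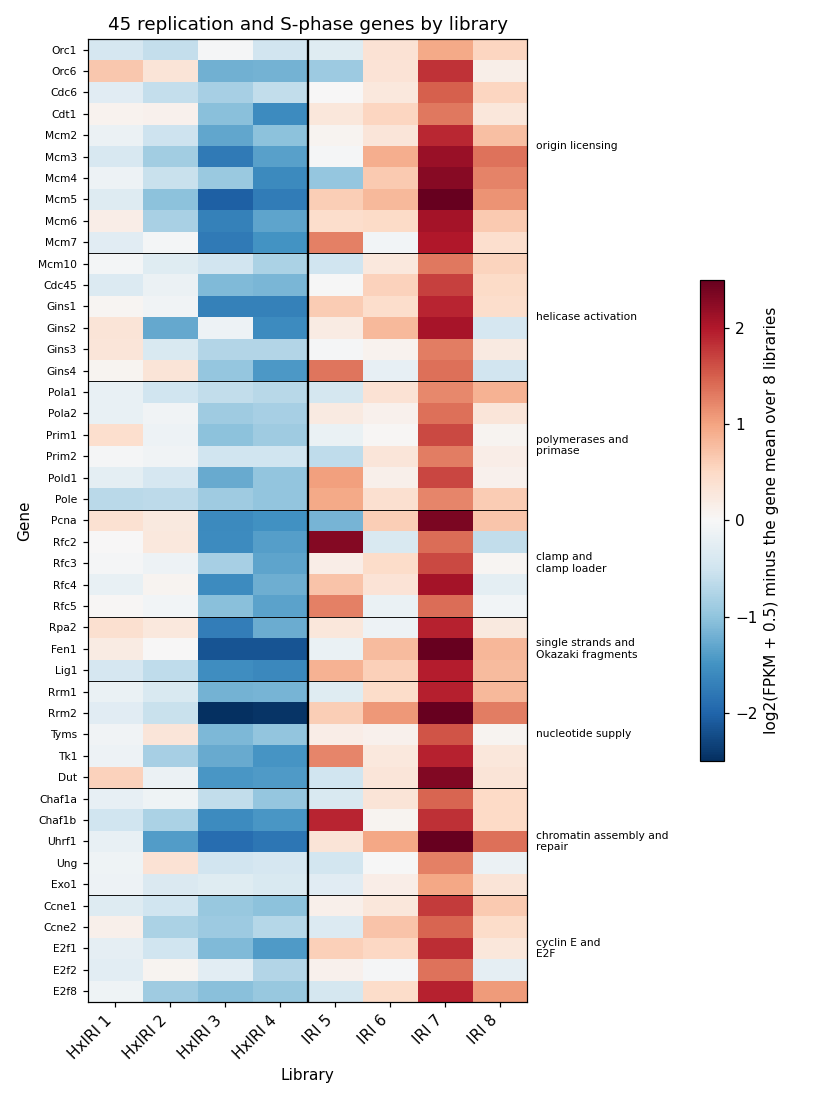
Level of each of the 45 genes (rows, by role) in each library (columns), as log2(FPKM + 0.5) minus the gene's mean over the 8 libraries. IRI library 7 holds the highest value of 43 of the 45 genes, and HxIRI library 3 or 4 the lowest of 43.

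The test was passed by 7 genes, all lower in HxIRI: Uhrf1, Mcm5, Rrm2, Chaf1b, Mcm3, Pole and Lig1. These are 7 of the 41 tested genes, against 0.602% of all tested genes called lower, and no gene of the set was higher. The estimate was negative for all 41, as it was for 61% of all tested genes, and at an unadjusted p under 0.05 it was lower for 32 of the 41, against 6.84% of all. Groups did not overlap for 19 of the 41, against 3.06% of all tested genes with every HxIRI library below every IRI library. The median change of the 41 was -1.37 on the log2 scale, where the median of all tested genes was -0.14, so that changes relative to the other genes are smaller in size by 0.14. The calls depended on single libraries and on the variance model. Without IRI library 7 none of 37 tested genes of the set passed, against 0.0284% of all, while 17 were lower at an unadjusted p under 0.05, against 3.72% of all, and the median was -1.03. The number was 4 without HxIRI library 2 (0.451% of all), 1 without HxIRI library 3 (0.302%), 3 without HxIRI library 4 (0.371%), 3 without IRI library 5 (0.347%) and 11 without IRI library 8 (1.63%). It was 0 with HxIRI libraries 1 and 2, and 3 and 4, averaged as pairs (0.0346% of all), where 21 were lower at an unadjusted p under 0.05 (3.59%). It was also 0 without a trend of variance with level (0.0554%), where 28 were (5.82%).

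**Figure D2:**
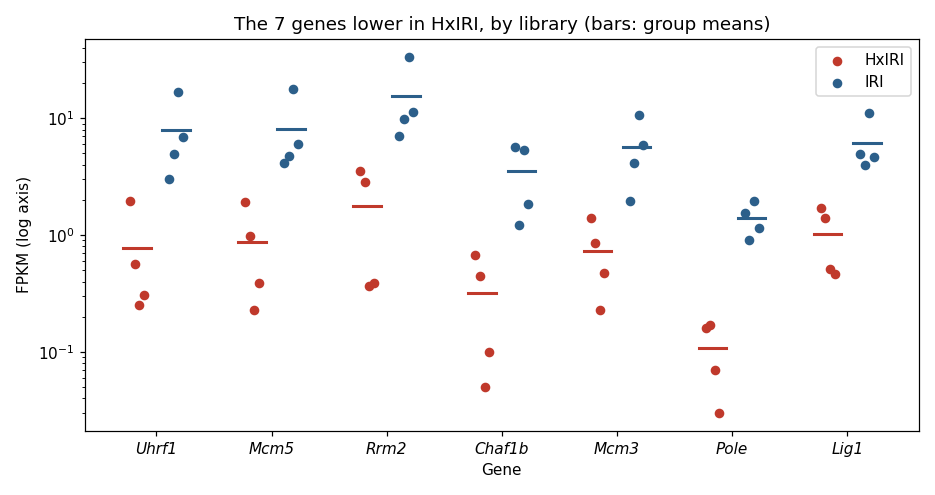
FPKM on a log axis of the 7 genes that passed, with 4 HxIRI and 4 IRI libraries per gene (points) and the group means (bars). The groups do not overlap for any of the 7 genes. IRI library 7 is the highest point for 6 of them, and for Chaf1b it is IRI library 5.

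Here and below, fell means lower in HxIRI than in IRI at an adjusted p under 0.05, and not a decline over time. Among the 10 origin licensing genes, Mcm3 and Mcm5 fell and the other MCM subunits had lower values that did not pass. Mcm5, a subunit of the replicative helicase, had 1.92, 0.98, 0.23 and 0.39 FPKM in HxIRI libraries 1 to 4 and 4.10, 4.77, 17.6 and 6.07 FPKM in IRI libraries 5 to 8. Its lowest IRI library was above its highest HxIRI library, and the log2 change was -2.57 ± 0.54 (SE, n = 4 each, limma adjusted p = 0.0226). Mcm3, another helicase subunit, had 1.39, 0.86, 0.23 and 0.47 FPKM in the HxIRI libraries and 1.95, 4.17, 10.6 and 5.87 FPKM in the IRI libraries, again without overlap. Its log2 change was -2.20 ± 0.51 (SE, limma adjusted p = 0.036).

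Mcm6 was the second most abundant MCM gene after Mcm7 in the IRI libraries. It had 4.72, 2.15, 0.95 and 1.37 FPKM in the HxIRI libraries and 5.81, 6.02, 19.1 and 6.85 FPKM in the IRI libraries, and did not pass (log2 change -1.83, limma adjusted p = 0.16). Mcm2 had 1.60, 1.11, 0.44 and 0.64 FPKM in HxIRI and 1.94, 2.36, 8.04 and 3.38 FPKM in IRI, without overlap (log2 change -1.50, limma adjusted p = 0.178). Mcm7 had 3.52, 4.19, 0.92 and 1.22 FPKM in HxIRI and 11.1, 4.11, 19.0 and 5.97 FPKM in IRI. In Mcm7 only HxIRI library 2 and IRI library 6 crossed. Mcm4 averaged 1.30 ± 0.727 FPKM in HxIRI and 6.25 ± 5.34 FPKM in IRI (SD, n = 4 each), and its groups overlapped through IRI library 5, at 0.99 FPKM.

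None of the loaders of the helicase passed. Cdc6 had 0.23, 0.09, 0 and 0.08 FPKM in the HxIRI libraries and 0.40, 0.57, 1.99 and 0.79 FPKM in the IRI libraries, with no overlap (log2 change -1.16, limma adjusted p = 0.209). Cdt1, its partner in licensing, had 1.44, 1.45, 0.38 and 0.11 FPKM in HxIRI and 1.73, 2.15, 4.02 and 1.73 FPKM in IRI, also without overlap (limma adjusted p = 0.32). Orc6 had 2.65, 1.97, 0.36 and 0.38 FPKM in HxIRI and 0.56, 2.01, 6.47 and 1.69 FPKM in IRI, with widely overlapping groups. Orc1, which is too low to have been tested, had 0.01 to 0.25 FPKM in HxIRI and 0.12 to 0.97 FPKM in IRI.

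Promoter windows were examined for forms of the E2F site, the element read by the E2F factors. RefSeq windows on GRCm38.p6, from 250 bases before to 50 after the RefSeq gene start, were found for 36 of the 45 genes. They were searched on both strands for TTTGGCGC, TTTCCCGC, TTTCGCGC and TTTGCCGC, which are 4 forms of 1 consensus and can overlap each other on opposite strands. A match was present in 14 of the 36 genes, in 441 of 9697 tested genes with a window (4.55%) and in 704 of 27025 genes in all (2.60%, where a gene with several windows counts once). Of the 7 genes that passed, 6 had a window and 4 of these a match, namely Mcm3, Mcm5, Lig1 and Uhrf1. A match is a description of these letters and not a shown binding site, and the lack of a match does not show that a site is absent. One site of each licensing gene with a match, and of Lig1 and Uhrf1, is set out with its flanks because these genes include most of those that passed. Each is read in the direction of the motif, which is in capitals. The motifs lie, with their strand, at chr8:75109356-75109363 (plus) for Mcm5, chr1:128359745-128359752 (minus) for Mcm6, chr1:20820286-20820293 (plus) for Mcm3, chr5:138172041-138172048 (plus) for Mcm7, chr11:98908013-98908020 (minus) for Cdc6, chr4:108579427-108579434 (minus) for Orc1, chr8:122568047-122568054 (plus) for Cdt1, chr7:13278852-13278859 (minus) for Lig1 and chr17:56304128-56304135 (plus) for Uhrf1. Those of Mcm3, Cdt1 and Lig1 lie after the RefSeq start and the others before it. The RefSeq starts differ from those of GENCODE M21, by which the printed sites of Mcm5 and Mcm6 lie outside the gene and the others inside it.
Mcm5: ccaagaacTTTCGCGCcaaaacgt
Mcm6: tggacgggTTTGGCGCgaagtagc
Mcm3: tcccaagtTTTCCCGCcacggaag
Mcm7: acaccctgTTTCCCGCggttcgaa
Cdc6: ccaggcgaTTTCCCGCtctccacc
Orc1: agaaaactTTTCGCGCcactaacc
Cdt1: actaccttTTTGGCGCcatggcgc
Lig1: cacacagaTTTCGCGCgcactttg
Uhrf1: gagtcgggTTTCGCGCgcccaggc

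The 250 bases before the RefSeq start of Mcm5 and of Mcm6 are shown because each holds a pair of motif forms on opposite strands that overlap in a single run of capitals. The Mcm5 window is chr8:75109259-75109508 on the plus strand, with its run beginning 153 bases before the start. The Mcm6 window is chr1:128359706-128359955 on the minus strand, with runs beginning 110 and 47 bases before the start.
Mcm5: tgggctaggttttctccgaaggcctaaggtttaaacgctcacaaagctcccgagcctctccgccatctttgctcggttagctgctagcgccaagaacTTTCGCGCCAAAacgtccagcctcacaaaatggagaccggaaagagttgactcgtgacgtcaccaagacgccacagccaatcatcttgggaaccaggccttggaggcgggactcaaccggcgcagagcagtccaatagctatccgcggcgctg
Mcm6: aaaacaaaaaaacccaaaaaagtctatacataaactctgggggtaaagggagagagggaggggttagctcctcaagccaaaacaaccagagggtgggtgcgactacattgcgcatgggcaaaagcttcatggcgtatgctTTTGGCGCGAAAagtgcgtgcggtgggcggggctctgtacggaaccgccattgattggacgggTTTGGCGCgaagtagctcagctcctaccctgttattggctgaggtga

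In the helicase activation group no gene passed. Gins1, a subunit of the GINS complex, had 1.18, 1.03, 0 and 0 FPKM in HxIRI and 2.01, 1.70, 5.57 and 1.70 FPKM in IRI, with no overlap (log2 change -1.71, limma adjusted p = 0.103). Cdc45, which joins GINS and MCM in the active helicase, had 0.50, 0.64, 0.09 and 0.07 FPKM in HxIRI and 0.75, 1.38, 3.65 and 1.26 FPKM in IRI, without overlap (limma adjusted p = 0.163). Gins4 was the most abundant of the group, with 6.53, 7.89, 2.94 and 1.98 FPKM in HxIRI and 16.4, 5.34, 16.9 and 4.32 FPKM in IRI, and its groups overlapped. Gins2 (log2 change -1.33) and Gins3 (-0.78) did not pass either. For Gins2, 67.3% of the exon bases also lie in exons of the opposite-strand gene Gse1, and reads of the pair cannot be told apart unless strand was used. Mcm10, not tested, had 0.02 to 0.36 FPKM in HxIRI and 0.13 to 1.72 FPKM in IRI.

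Of the polymerase and primase genes, Pole fell. Pole, the catalytic subunit of the leading strand polymerase epsilon, had 0.16, 0.17, 0.07 and 0.03 FPKM in the HxIRI libraries and 1.55, 0.90, 1.96 and 1.14 FPKM in the IRI libraries. It had the largest ratio of IRI to HxIRI means in the set, and the smallest spread among the IRI libraries of the 7 genes that passed (0.467 FPKM SD), with a log2 change of -1.61 ± 0.38 (SE, n = 4 each, limma adjusted p = 0.0409). Since 0.5 FPKM was added before taking logs, that change understates the ratio of the means. Pold1, the catalytic subunit of polymerase delta, had 1.03, 0.86, 0.26 and 0.41 FPKM in HxIRI and 3.19, 1.47, 5.26 and 1.45 FPKM in IRI, without overlap, and missed the threshold (log2 change -1.46, limma adjusted p = 0.16). Pola2, the accessory subunit of polymerase alpha, had 0.65, 0.73, 0.21 and 0.24 FPKM in HxIRI and 1.03, 0.92, 2.92 and 1.11 FPKM in IRI, also without overlap (log2 change -1.0). Pola1 (-0.99) and the primase genes Prim1 (-0.80) and Prim2 (-0.55) had overlapping groups.

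Pcna, the sliding clamp that holds polymerases on DNA, was the most abundant gene of the set and did not pass. It had 12.2, 11.1, 2.75 and 2.94 FPKM in the HxIRI libraries and 3.86, 14.5, 49.5 and 15.3 FPKM in the IRI libraries. IRI library 5 lay among the HxIRI libraries, while the other 3 IRI libraries were above all of them (log2 change -1.24 ± 0.74, SE, n = 4 each, limma adjusted p = 0.707). The clamp loader genes Rfc2, Rfc3, Rfc4 and Rfc5 had log2 changes of -1.34, -1.16, -1.45 and -1.20, and none passed. Rfc3 was the only one of them without overlap, with 1.01, 0.90, 0.36 and 0.12 FPKM in HxIRI and 1.22, 1.60, 4.30 and 1.10 FPKM in IRI. Rfc4, with the smallest p of the group, had 1.62, 2.01, 0.31 and 0.53 FPKM in HxIRI and 3.45, 2.55, 9.62 and 1.54 FPKM in IRI (limma adjusted p = 0.272). Its groups overlapped through IRI library 8. Rfc2 had 17.9 FPKM in IRI library 5, against 1.95 to 9.40 FPKM in the other IRI libraries.

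Lig1, the ligase that joins Okazaki fragments, had 1.71, 1.39, 0.51 and 0.46 FPKM in the HxIRI libraries and 4.93, 3.97, 11.01 and 4.61 FPKM in the IRI libraries. The groups were well separated (log2 change -2.12 ± 0.51, SE, n = 4 each, limma adjusted p = 0.0413). Fen1, the flap nuclease that trims those fragments, had 2.10, 1.77, 0 and 0 FPKM in HxIRI and 1.5, 3.39, 13.5 and 3.5 FPKM in IRI. Its groups overlapped through IRI library 5 (log2 change -2.05, limma adjusted p = 0.115). An opposite-strand gene, Gm10143, covers 78.8% of the exon bases of Fen1, and the same limit on strand applies. Rpa2, a subunit of the protein that coats single-stranded DNA, had a log2 change of -1.16 and overlapping groups.

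In nucleotide supply Rrm2 fell, with the largest change of the set on the log2(FPKM + 0.5) scale, while several genes exceeded it in the ratio of means. Rrm2, the S-phase subunit of ribonucleotide reductase, which makes deoxynucleotides, had 3.53, 2.82, 0.37 and 0.39 FPKM in the HxIRI libraries and 6.98, 9.89, 33.6 and 11.3 FPKM in the IRI libraries. The log2 change was -2.89 ± 0.64 (SE, n = 4 each, limma adjusted p = 0.0278). Its partner Rrm1, the large subunit, averaged 0.75 ± 0.452 FPKM in HxIRI and 3.32 ± 2.60 FPKM in IRI (SD, n = 4 each), a difference that missed the threshold (log2 change -1.45, limma adjusted p = 0.199). Tk1, the thymidine kinase of cycling cells, had 1.82, 0.93, 0.56 and 0.41 FPKM in HxIRI and 5.36, 2.54, 9.13 and 2.57 FPKM in IRI, without overlap (log2 change -1.84, limma adjusted p = 0.0808). Tyms, which makes thymidylate, and Dut, which removes dUTP, had log2 changes of -0.95 and -1.22 with overlapping groups.

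Both chromatin genes that passed act just behind the fork. Uhrf1, which brings the maintenance DNA methyltransferase to newly copied DNA, had 1.97, 0.57, 0.25 and 0.31 FPKM in the HxIRI libraries and 3.02, 4.98, 16.9 and 6.85 FPKM in the IRI libraries. It had the smallest p of the set (log2 change -2.65 ± 0.55, SE, n = 4 each, limma adjusted p = 0.0198). Chaf1b, a subunit of the histone chaperone CAF-1, had 0.67, 0.45, 0.05 and 0.10 FPKM in HxIRI and 5.69, 1.23, 5.30 and 1.83 FPKM in IRI (log2 change -2.16 ± 0.48, SE, n = 4 each, limma adjusted p = 0.0278). Chaf1a, the large CAF-1 subunit, did not pass (log2 change -0.95, limma adjusted p = 0.474), and 52.5% of its exon bases lie in exons of the opposite-strand gene Ubxn6. The repair genes Ung and Exo1 averaged 0.27 and 0.035 FPKM in HxIRI and 0.55 and 0.34 FPKM in IRI and were not tested.

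None of the cyclin E and E2F genes passed as deposited. E2f1, an activating E2F, had 0.89, 0.64, 0.25 and 0.11 FPKM in the HxIRI libraries and 1.96, 1.82, 5.31 and 1.48 FPKM in the IRI libraries, without overlap (log2 change -1.63 ± 0.45, SE, n = 4 each, limma adjusted p = 0.0872). Ccne1, which encodes cyclin E1, had 0.32, 0.22, 0.03 and 0 FPKM in HxIRI and 0.61, 0.74, 2.92 and 1.10 FPKM in IRI, also without overlap (log2 change -1.40, limma adjusted p = 0.122). Ccne2 and the repressor E2f8 had log2 changes of -1.15 and -1.50, and without IRI library 5 their groups were apart. E2f2 had the smallest estimate of this group (-0.60, limma adjusted p = 0.81).

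**Figure D3:**
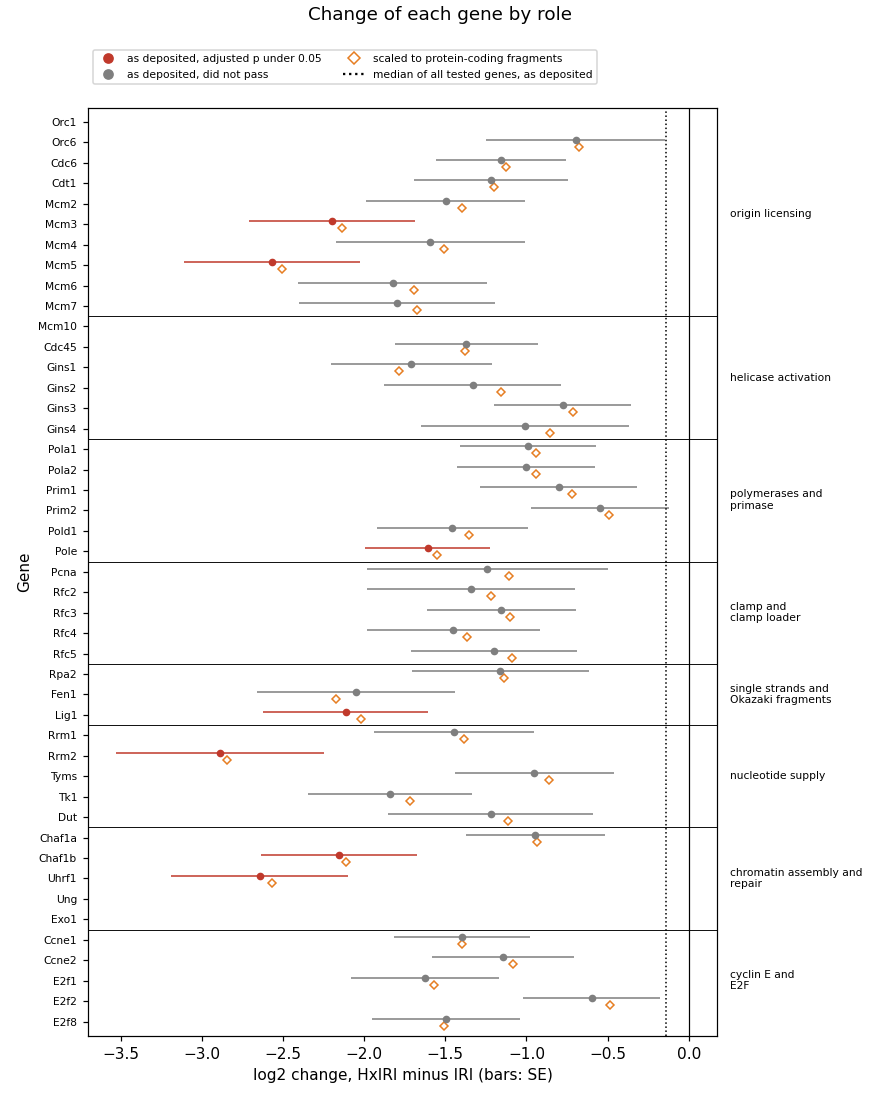
Log2 change of each tested gene, HxIRI minus IRI, by role (points with SE bars, n = 4 each; red where adjusted p was under 0.05), with the change after scaling to protein-coding fragments (diamonds). All estimates lie left of the dotted median of all tested genes at -0.14. Rows without points are the 4 genes that were not tested.

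Because the protein-coding share differed among libraries, the set was also read after scaling each library to its protein-coding fragments. The summed level was then 67.0, 41.0, 34.8 and 30.03 in HxIRI libraries 1 to 4 and 91.3, 138.6, 227.4 and 202.7 in IRI libraries 5 to 8. The groups still did not overlap, and IRI libraries 7 and 8 were now close to each other. Under this scaling 12 of the 41 genes fell, against 1.58% of all tested genes, and the groups were apart for 25, against 7.02%. The 12 were the same 7 genes with Mcm7, Gins1, Pold1, Tk1 and E2f1. IRI library 7 was the highest for 39 of the 41 genes as deposited, against 50.4% of all genes, and for 22 after scaling, against 18.6%. With TMM scaling, which equalises libraries on the bulk of their genes and moved the median of all genes to 0.034, 14 of the 41 fell, against 1.2%. The estimates were negative for all 41 under both scalings, against 51.1% and 47.6% of all genes. With quantile normalization, 20 fell, against 2.42%. Without IRI library 7 none passed under TMM or protein-coding scaling, while 30 of 41 were lower at an unadjusted p under 0.05 under TMM, against 6.55% of all, and 27 under protein-coding scaling, against 6.78%. With no filter on low values none of the 45 passed, while 30 were lower at an unadjusted p under 0.05, against 4.38% of all.

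IRI library 5 was at odds with the rest of its group for part of the set. It was below HxIRI library 1 for 18 of the 45 genes, among them Pcna, Mcm4, Dut and Fen1, and it was the highest library for Rfc2 and Chaf1b. Without it, groups were apart for 28 of the 41 tested genes, against 8.11% of all tested genes. With TMM scaling and without it, 27 of the 41 fell, against 4.15% of all. The genes that did not fall in that setting included Cdt1, Gins2, Gins3, Gins4, Prim1, Rfc2, Rfc4, Rfc5, Tyms and Dut. Leaving out both IRI libraries 5 and 7 under TMM scaling left 5 genes that fell, Mcm3, Mcm5, Pole, Lig1 and Uhrf1, against 0.914% of all.

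**Figure D4:**
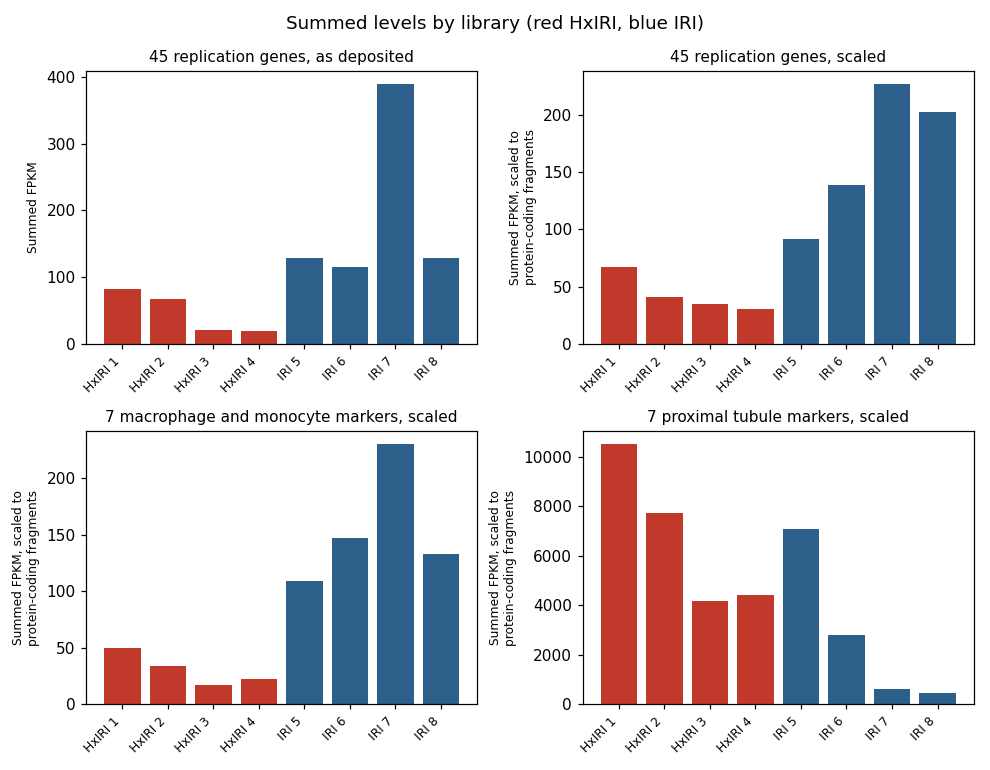
Summed FPKM by library (bars, red HxIRI and blue IRI) of the 45 genes as deposited and after scaling to protein-coding fragments, and of 7 macrophage and monocyte and 7 proximal tubule markers after that scaling. For the 45 genes every HxIRI bar is below every IRI bar on both scales. After that scaling the proximal tubule sum is lowest in IRI libraries 7 and 8, where the 45 genes are highest. Kap makes up most of the proximal tubule sum in every library, and Lyz2 most of the macrophage and monocyte sum.

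The fork was compared with its neighbours in the cell cycle through lists of genes outside the set. Of 38 other replication and S-phase genes that were tested, none passed in either direction (10 lower at an unadjusted p under 0.05, against 6.84% of all), and their median change was -0.78. With TMM scaling Asf1b fell, against 1.2% of all tested genes, and with TMM scaling without IRI library 5, 12 fell, against 4.15%. Asf1b, a histone chaperone, had the smallest p of the list (log2 change -1.85 ± 0.46, SE, n = 4 each, limma adjusted p = 0.0512), followed by the chromatin remodeller gene Hells (-1.57, limma adjusted p = 0.101). The ORC subunits outside the set had overlapping groups and did not pass, with log2 changes of -0.36 for Orc2, 0.19 for Orc3, 0.19 for Orc4 and -0.36 for Orc5. Orc4 averaged 1.71 ± 0.24 FPKM in HxIRI and 1.65 ± 1.14 FPKM in IRI (SD, n = 4 each).

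Among 20 tested G1/S control genes Ccna2 alone fell, against 0.602% of all tested genes. Estimates were negative for 17 of the 20, against 61% of all tested genes. At an unadjusted p under 0.05, 5 were lower, against 6.84% of all. Cks1b narrowly missed the threshold (log2 change -2.81, limma adjusted p = 0.0507). Ccna2, which encodes the cyclin of S and G2 phase, had 2.5, 1.12, 0.11 and 0.40 FPKM in HxIRI and 4.07, 5.25, 23.7 and 8.48 FPKM in IRI (log2 change -2.77 ± 0.59, SE, n = 4 each, limma adjusted p = 0.0229). Ccnd1, the G1 cyclin, had 15.7, 11.6, 9.63 and 10.89 FPKM in HxIRI and 26.4, 23.7, 58.7 and 19.7 FPKM in IRI, without overlap, and did not pass (log2 change -1.27, limma adjusted p = 0.635). The pocket protein genes Rb1 and Rbl2 and the repressor E2f5 had positive estimates, of 0.60, 0.71 and 0.49, which did not pass. Rbl1, also a pocket protein gene, had a negative estimate of -0.78. E2f4 and E2f6 had estimates of -0.41 and -0.50, and none of these passed as deposited. None of 6 tested CDK inhibitor genes passed in either direction, and none had an unadjusted p under 0.05. Cdkn1a, which encodes p21, had 4.71, 25.2, 1.5 and 2.37 FPKM in HxIRI and 22.7, 7.87, 23.0 and 5.38 FPKM in IRI, with overlapping groups (log2 change -1.28, limma adjusted p = 0.693). Cdkn1c was next in order of p (-0.89, limma adjusted p = 0.772).

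Of 20 mitosis genes, 8 fell, against 0.602% of all tested genes, and their median change was -1.91, beside -1.37 for the 41 replication genes. The 8 were Mki67, Top2a, Ccnb1, Cdc20, Birc5, Mybl2, Tpx2 and Cenpe. Mki67, a marker of cycling cells, had 2.72, 1.07, 0.64 and 0.61 FPKM in HxIRI and 4.93, 10.1, 18.3 and 20.02 FPKM in IRI, so that IRI library 8 and not 7 was its highest (log2 change -2.94 ± 0.58, SE, n = 4 each, limma adjusted p = 0.0148). Top2a, the topoisomerase that untangles copied chromosomes, fell by 2.48 on the log2 scale (limma adjusted p = 0.0316). Without IRI library 7 neither passed (limma adjusted p = 0.0953 for Mki67 and 0.208 for Top2a). Promoter windows of 16 mitosis genes held the E2F forms in 1, against 14 of 36 in the replication set. The forms were present in 11 of 34 other replication and S-phase genes with a window and in 4.55% of tested genes. The letters TTTGAA, the core of the cell cycle homology region, were present on either strand in 10 of the 16 mitosis genes, in 6 of the 36 replication genes and in 14.2% of tested genes.

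Sums of macrophage and monocyte and of fibroblast and pericyte markers were lower in every HxIRI library than in every IRI library, as for the replication genes. The 7 macrophage and monocyte markers summed to 10.3 to 61.8 FPKM in HxIRI and 83.9 to 395.3 FPKM in IRI. All 7 were lower on average in HxIRI, none was called and none was at 0. Groups were apart, with HxIRI lower, for 3 of the 7, against 3.06% of all tested genes. Lyz2 made up most of this sum in every library, with 43.4 FPKM in HxIRI library 1 and 326.1 FPKM in IRI library 7. Csf1r had 7.89 and 8.07 FPKM in HxIRI libraries 1 and 2, above the 5.82 and 4.43 FPKM of IRI libraries 6 and 8. The 5 fibroblast and pericyte markers summed to 24.2 to 55.1 FPKM in HxIRI and 94.7 to 291.4 FPKM in IRI. Of these 4 were lower on average, Dcn was higher and none was called. Groups were apart for 2 of the 5. The 6 injured tubule markers summed to 231.3 to 2385 FPKM in HxIRI and 824.9 to 4348 FPKM in IRI. All 6 were lower on average in HxIRI and 2 were called lower, against 0.602% of all tested genes. Spp1 made up most of this sum, with 2259 FPKM in HxIRI library 1 and 3740 FPKM in IRI library 7. The groups overlapped in it, as HxIRI library 1 was above IRI libraries 5, 6 and 8 (824.9, 1624 and 1533 FPKM). In proximal tubule markers the sums were 2492 to 12999 FPKM in HxIRI and 273.7 to 10003 FPKM in IRI, with 1 of 7 lower and none called. Kap made up most of these sums, with 12332 FPKM in HxIRI library 1 and 178 FPKM in IRI library 8. The 4 neutrophil markers with a row reached 2.91 FPKM in HxIRI and 58.6 FPKM in IRI library 7, the other IRI libraries having 1.86 to 5.25 FPKM. Lymphocyte markers summed to at most 0.58 FPKM in HxIRI and 3.39 FPKM in IRI, each of the 7 being at 0 in at least 1 library. Endothelial sums overlapped, with 16.6 to 28.4 FPKM in HxIRI and 7.34 to 31.0 FPKM in IRI, and the 4 erythroid markers with a row summed to 115.2 to 311.9 FPKM in HxIRI and 6.46 to 282.5 FPKM in IRI. The part of these cell types in the difference of the replication genes was not tested.

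**Figure D5:**
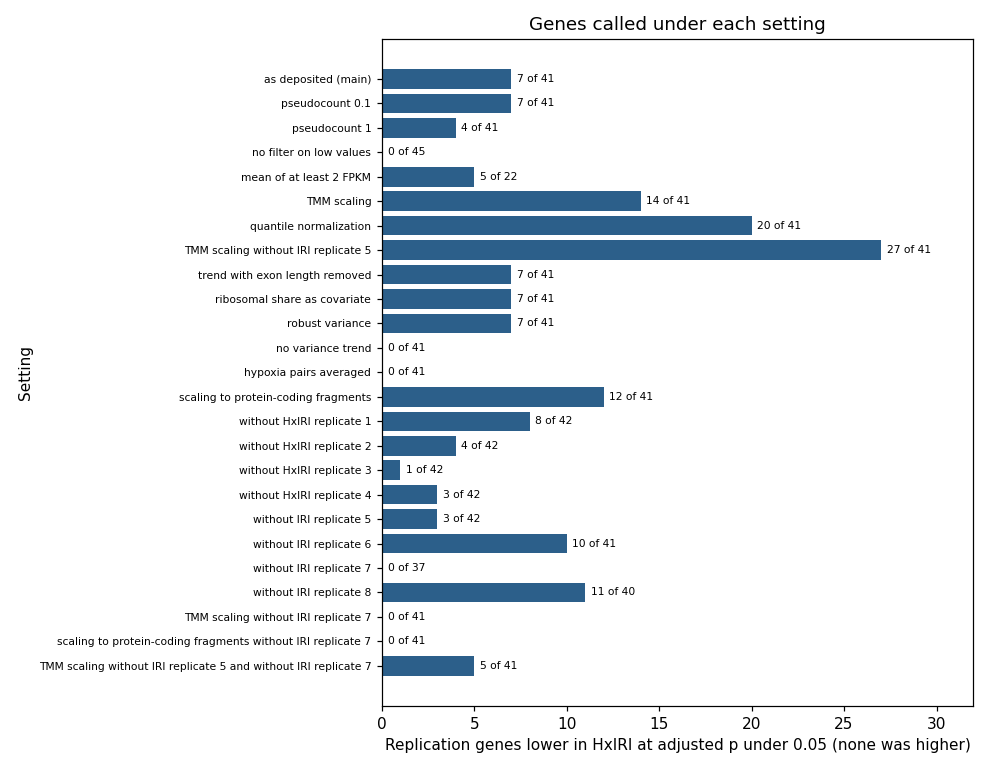
Number of genes of the set lower in HxIRI at an adjusted p under 0.05 (bars, with the number tested) under each setting. The number is 7 as deposited, 27 with TMM scaling without IRI library 5, and 0 in each setting that leaves out IRI library 7 alone.

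Depth limits the low genes. The estimated number of fragments behind a value of the 7 genes that passed was 2 to 119 in the HxIRI libraries and 55 to 1349 in the IRI libraries. Over the 45 genes it had a median of 10 in HxIRI libraries 3 and 4, 55 and 62 in HxIRI libraries 2 and 1, and 69 to 329 in the IRI libraries. A value listed at 0, as for 6 of the 45 genes in HxIRI libraries 3 or 4, does not show absence. On GRCm38 in GENCODE M21, Uhrf1 lies at chr17:56303321-56323486, Chaf1b at chr16:93883901-93906115, Rrm2 at chr12:24708241-24714146, Mcm5 at chr8:75109569-75128439, Lig1 at chr7:13277283-13311433 and Pole at chr5:110286306-110337474, all on the plus strand. Mcm3 lies at chr1:20802968-20820312 on the minus strand.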

How the data were processed

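The 8 poly(A) RNA libraries of mouse kidney, 4 labelled HxIRI and 4 labelled IRI, were made with a TruSeq stranded mRNA protocol, per the labels' protocols. The deposited table holds FPKM for each gene and library, per the file headers. The submitters' processing notes name HISAT2, StringTie and edgeR, but neither version nor role. For genome build, annotation and strand in counting, the answer is not given in the sources used here. All 34450 Ensembl identifiers matched GENCODE M21 (GRCm38), which gave symbols, exon lengths and coordinates. Groups and library numbers came from the sample titles.

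The authors' FPKM were analysed as log2(FPKM + 0.5) without further scaling, in the 14444 genes with a mean of at least 0.5 FPKM. Groups were compared two-sided with limma 3.58.1 (R 4.3.3, eBayes with trend) and Benjamini-Hochberg adjustment over all tested genes and a threshold of 0.05. Every adjusted p in the text is from limma. The fit was tested on simulated data with independent noise for each gene, and the TMM scaling on a single profile multiplied by known factors. Neither held differences in library composition or an outlying library, so these features of the data are not covered. The 45 genes, the role groups, the other lists and the settings were chosen with earlier results of these data known. Full values are given for genes that passed, for the most abundant and the smallest-p gene of each role group, and for genes whose groups do not overlap. Of each other list the passing genes were named, or those with the smallest p, and Mki67, Top2a, Ccnd1 and Cdkn1a in any case. Other genes, inside the set and outside it (Orc2 to Orc5, Cks1b, Rb1, Rbl1, Rbl2, E2f4, E2f5, E2f6), were named after their values were seen.

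Depth is an approximation without an interval. It was read from the most frequent step between low FPKM values, multiplied by exon length, of genes with a single exon and 600 to 3000 bases. Shares of fragments were FPKM times exon length. Alternatives were a pseudocount of 0.1 or of 1, a filter of 2 FPKM or none, TMM scaling (trimming 30% of ratios and 5% of levels at each end), quantile normalization, removal of the trend with exon length (loess, span 0.5), the ribosomal share as a covariate, other variance models, averaged pairs of HxIRI libraries and each library left out. Scaling to protein-coding fragments, and leaving out IRI library 7 after scaling, were added after the data were seen.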

Additional observations from a re-analysis of the deposited data

Results flagged for a closer look

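In 3 genes of the set an IRI library was set apart from the other 3 by more than the 95% limit of Dixon's test for a group of 4, on the log2(FPKM + 0.5) scale. In each it was IRI library 7, with 5.57 FPKM of Gins1 (gap over range 0.870), 19.09 FPKM of Mcm6 (0.865) and 2.92 FPKM of Pola2 (0.857). These were 3 of 74 groups examined, and chance alone sets apart about 1 group in 20. The 74 were the 2 groups of each of the 37 genes followed by the naming rule, inside the set and outside it. Other genes of the set were not examined in this way.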

How the results depend on the processing

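No gene of the set was called higher under any of the settings run, and the median change of its tested genes stayed between -1.85 (pseudocount 0.1) and -1.03 (without IRI library 7). The number lower, 7 as deposited, was 4 with a pseudocount of 1, 14 with TMM scaling, 20 with quantile normalization, 12 with scaling to protein-coding fragments and 27 with TMM scaling without IRI library 5. It was 0 without a filter (30 lower at an unadjusted p under 0.05, where 30982 genes were tested), 0 without a variance trend (28 lower unadjusted) and 0 with the HxIRI libraries averaged in pairs (21 lower unadjusted, 2 values against 4). It was also 0 with TMM or protein-coding scaling without IRI library 7 (30 and 27 lower unadjusted). Leaving out 1 library gave 0 to 11 lower and 0 higher in the set, and 11 to 67 higher and 4 to 237 lower among all tested genes, where 44 and 87 were called as deposited. The counts of all genes higher and lower were 33 and 47 with a pseudocount of 1, 0 and 0 without a filter, 170 and 173 with TMM, 280 and 349 with quantile normalization, 633 and 599 with TMM without IRI library 5, 90 and 191 with the ribosomal share as covariate, 17 and 8 without a variance trend, 22 and 5 with averaged pairs and 148 and 228 with protein-coding scaling. They were 7 and 4 with TMM without IRI library 7, 21 and 9 with protein-coding scaling without it, and 102 and 132 with TMM without IRI libraries 5 and 7. Removing the trend with exon length and robust variance left the set at 7. None of the genes followed by the naming rule changed direction where it was tested. Tested were 37 in most settings, 35 without IRI library 7, 36 without IRI library 8 and 22 with a filter of 2 FPKM. Most of these genes were chosen by p or by groups without overlap in the same data, which favours a stable direction. E2f4, named outside that rule, had an estimate of -0.41 as deposited and of 0.05 without IRI library 7. The cause of the shifts between settings was not tested. No paired analysis was possible because the groups share no library number.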

Other observations

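Estimates within 2 complexes are given side by side. Of the pair that forms ribonucleotide reductase, Rrm2 had a log2 change of -2.89 ± 0.64 (SE) and Rrm1 of -1.45 ± 0.49 (SE). Of the CAF-1 pair, Chaf1b had -2.16 ± 0.48 (SE) and Chaf1a -0.95 ± 0.43 (SE), all n = 4 each. The difference within each pair was not tested, and 52.5% of the exon bases of Chaf1a lie in exons of Ubxn6.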
